A study of Rattus norvegicus with 12 samples.

Results

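Striatal projection neurons are the principal cells of the striatum, which lies directly beneath the frontal cortex, and 9 genes known for their high expression in these neurons were followed here in rat medial prefrontal cortex. The genes were Drd1, Drd2, Adora2a, Ppp1r1b, Penk, Pdyn, Tac1, Rgs9 and Pde10a. They were chosen by their symbol in a table of normalized read counts, in which each symbol matched 1 of 15939 genes, and all 9 were among the 13496 genes tested, those reaching 10 in 3 or more libraries. RNA from the medial prefrontal cortex of Wistar rats was sequenced in 12 libraries, 3 in each of 4 groups. Young rats were 3 months old and aged rats 22 months old. Performing rats were trained in an operant task and tested in it for attention, and nonperforming rats of the same age had the same context without ever doing a cognitive task. A library code gives the age (Y or A), then N for nonperforming or P for performing, then a number in accession order, so that AP2 is the second aged performing library. No genetic change or drug is named for any group, and whether a library came from 1 rat or from a pool is not given in the sources used here.

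Depth ran from 22189094 to 42205582 reads per library. YP3 and AN3 stood apart in the genes described here, and results that rest on them are given with and without them. YN3 stood apart over the whole table: it was the lowest of the 12 libraries for 4140 genes (30.7%) and the highest for 4089 genes (30.3%) of the 13496 tested, more than any other library. YP2, AP1 and AP3 held much more RNA of olfactory bulb genes than the rest.

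The neurons form 2 classes that dopamine acts on in opposite ways. Neurons of the direct pathway carry the D1 dopamine receptor (Drd1) and make the peptide precursors prodynorphin (Pdyn) and preprotachykinin, the source of substance P (Tac1). Neurons of the indirect pathway carry the D2 dopamine receptor (Drd2) and an adenosine receptor (Adora2a) and make proenkephalin (Penk). Both classes share the protein phosphatase inhibitor DARPP-32 (Ppp1r1b), the G protein regulator RGS9 (Rgs9) and the cyclic nucleotide phosphodiesterase PDE10A (Pde10a). Cells of the cortex also use several of these genes: deep-layer pyramidal neurons can express Drd1 and Ppp1r1b, and cortical interneurons can express Penk, Pdyn and Tac1.

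Promoter windows are shown because members that moved together could be set beside Pde10a, which did not move with them. RefSeq (build GRCr8) held a window for 6 of the 9 members, namely Drd1, Drd2, Pdyn, Tac1, Rgs9 and Pde10a, the last with 2 start sites. Each line gives the 250 bases before the annotated start, 5′ to 3′ on the strand of the gene, and capitals mark matches on either strand to the core of the cAMP response element, a GC box or a TATA box, each spelled out after the sequences. The windows lie at chr8:58605153-58605402 (plus strand) for Drd2, chr3:137366504-137366753 (minus strand) for Pdyn, chr4:36645333-36645582 (plus strand) for Tac1, chr10:94770388-94770637 (minus strand) for Rgs9 and chr1:54765669-54765918 (minus strand) for the first start of Pde10a.
Drd2: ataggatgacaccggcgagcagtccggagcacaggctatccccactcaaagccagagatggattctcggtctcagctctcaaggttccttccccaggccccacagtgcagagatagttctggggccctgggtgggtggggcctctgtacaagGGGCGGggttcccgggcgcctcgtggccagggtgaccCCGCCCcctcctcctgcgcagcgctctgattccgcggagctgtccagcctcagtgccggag
Pdyn: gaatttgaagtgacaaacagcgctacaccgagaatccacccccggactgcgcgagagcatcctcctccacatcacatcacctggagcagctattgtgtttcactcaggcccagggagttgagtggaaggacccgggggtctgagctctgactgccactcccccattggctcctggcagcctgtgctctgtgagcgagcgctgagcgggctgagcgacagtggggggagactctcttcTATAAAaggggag
Tac1: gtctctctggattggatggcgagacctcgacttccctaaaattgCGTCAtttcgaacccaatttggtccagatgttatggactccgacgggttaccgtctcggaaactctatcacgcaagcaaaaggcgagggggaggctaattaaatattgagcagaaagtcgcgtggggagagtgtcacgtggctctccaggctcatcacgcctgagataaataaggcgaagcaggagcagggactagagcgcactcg
Rgs9: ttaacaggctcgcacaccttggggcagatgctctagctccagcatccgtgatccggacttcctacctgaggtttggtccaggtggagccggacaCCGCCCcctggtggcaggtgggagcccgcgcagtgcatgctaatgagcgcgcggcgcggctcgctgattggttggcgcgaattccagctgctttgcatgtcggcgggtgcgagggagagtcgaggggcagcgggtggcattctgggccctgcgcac
Pde10a: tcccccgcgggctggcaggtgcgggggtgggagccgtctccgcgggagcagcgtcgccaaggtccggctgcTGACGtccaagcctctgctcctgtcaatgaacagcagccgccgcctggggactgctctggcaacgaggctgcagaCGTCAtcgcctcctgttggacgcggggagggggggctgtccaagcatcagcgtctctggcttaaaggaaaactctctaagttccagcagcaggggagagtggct

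The full cAMP response element TGACGTCA, which reads the same on both strands and contains TGACG, was in 1.59% of 33469 windows of this length and in none of the 7 windows of the members. TGACG, on either strand, was in 18.2% of all windows, and among the members it occurred once in Tac1 and at 2 places in the first Pde10a window. GGGCGG was in 30.5% of all windows, and it occurred at 2 places in Drd2 and once each in Rgs9 and in the window of the second Pde10a start (chr1:54501207-54501456, minus strand). TATAAA was in 12.9% of all windows and occurred once, 13 bases before the start of Pdyn. The Drd1 window (chr17:10546354-10546603, plus strand) held none of these letters, but it ends in a pyrimidine-rich run and AG, as the end of an intron does, so it may not be a promoter and is not printed. These are matches of letters in short windows, and binding was not measured.

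All 3 dopamine and adenosine receptor genes among the members were highest in libraries YP3 and AN3. Drd1 stood at 204.0, 182.1 and 142.9 normalized counts in YN1 to YN3, at 157.7, 93.4 and 480.6 in YP1 to YP3, at 211.2, 228.2 and 448.7 in AN1 to AN3, and at 74.5, 144.7 and 99.8 in AP1 to AP3. YP3 and AN3 were thus 2.83 and 2.64 times the median of the 12 libraries, 169.9, while AP1 was at 0.438 of it. Drd2 stood at 105.9, 109.3 and 91.4 in the young nonperforming libraries, at 85.7, 74.5 and 301.1 in the young performing ones, at 83.1, 130.8 and 380.5 in the aged nonperforming ones, and at 83.5, 66.4 and 132.4 in the aged performing ones. The 10 other libraries spanned only 66.4 to 132.4 for Drd2, and AN3 and YP3 were at 3.86 and 3.05 times the median of 98.6. Adora2a, whose receptor opposes the D2 receptor in indirect-pathway neurons, read 122.2, 143.6 and 238.9 in YN1 to YN3, 133.0, 177.4 and 599.0 in YP1 to YP3, 116.6, 165.2 and 447.7 in AN1 to AN3, and 172.1, 105.6 and 204.5 in AP1 to AP3. YP3 and AN3 were its highest libraries, at 3.55 and 2.66 times the median, and YN3 followed at 238.9.

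In bulk tissue, fewer cells of a type and less RNA per cell cannot be told apart. These receptor genes remained above 0 in every library: the fewest reads behind any value of a member were 56, for Drd2 in AP2. How much of that level came from cortical cells was not tested.

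The genes of the intracellular signalling chain divided. Ppp1r1b was abundant everywhere, at 3452, 3211 and 6065 in YN1 to YN3, 4016, 3099 and 7137 in YP1 to YP3, 3571, 4559 and 5523 in AN1 to AN3, and 3069, 3264 and 2369 in AP1 to AP3. YP3 was its highest library and YN3, not AN3, the second, and the highest value was only 3.01 times the lowest. Rgs9, whose protein shortens signalling through G proteins, showed the sharpest separation among the members: it read 148.2, 148.9 and 208.1 in YN1 to YN3, 116.3, 119.5 and 616.1 in YP1 to YP3, 177.8, 163.3 and 497.1 in AN1 to AN3, and 115.6, 126.9 and 122.5 in AP1 to AP3. The lower of its values in YP3 and AN3 was 2.39 times that of the next library, YN3, and for Drd2 this ratio was 2.27.

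Pde10a, which breaks down cAMP and cGMP, followed a different course. It read 804.6, 915.0 and 124.4 in YN1 to YN3, 554.8, 600.8 and 360.3 in YP1 to YP3, 1010, 565.2 and 1165 in AN1 to AN3, and 575.3, 757.8 and 556.2 in AP1 to AP3. AN3 was its highest library and AN1 the second, while YP3, the library with the highest value of 7 other members, held the second lowest value of Pde10a at 0.613 of the median. YN3 was lowest by a wide margin, at 0.212 of the median. YN3 was the library that stood apart over the whole table, and the part of this in the Pde10a values was not tested.

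The peptide precursors were raised more in YP3 than in AN3. Penk read 997.0, 1372 and 3024 in YN1 to YN3, 961.7, 1441 and 4775 in YP1 to YP3, 1293, 1805 and 2319 in AN1 to AN3, and 1732, 1320 and 2284 in AP1 to AP3. For Penk, YN3 exceeded AN3, and AP3 at 2284 was close to AN3 at 2319. Pdyn read 368.6, 444.6 and 544.5 in YN1 to YN3, 311.4, 228.3 and 1241 in YP1 to YP3, 330.1, 553.7 and 692.8 in AN1 to AN3, and 202.9, 315.5 and 185.7 in AP1 to AP3. AP3 and AP1 held its lowest values, and YP2 the next, the same 3 libraries that were lowest for Drd1. Tac1 read 266.6, 461.8 and 263.4 in YN1 to YN3, 279.8, 257.8 and 1033 in YP1 to YP3, 419.0, 385.7 and 535.7 in AN1 to AN3, and 265.8, 265.7 and 293.4 in AP1 to AP3. YP3 was at 3.60 times the median for Tac1, and AN3 at 1.87 times. For Pdyn these were 3.55 and 1.98 times, and for Penk 3.01 and 1.46 times. By class, the direct-pathway genes Drd1, Pdyn and Tac1 and the indirect-pathway genes Drd2, Adora2a and Penk were all above the median in both libraries.

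**Figure D1:**
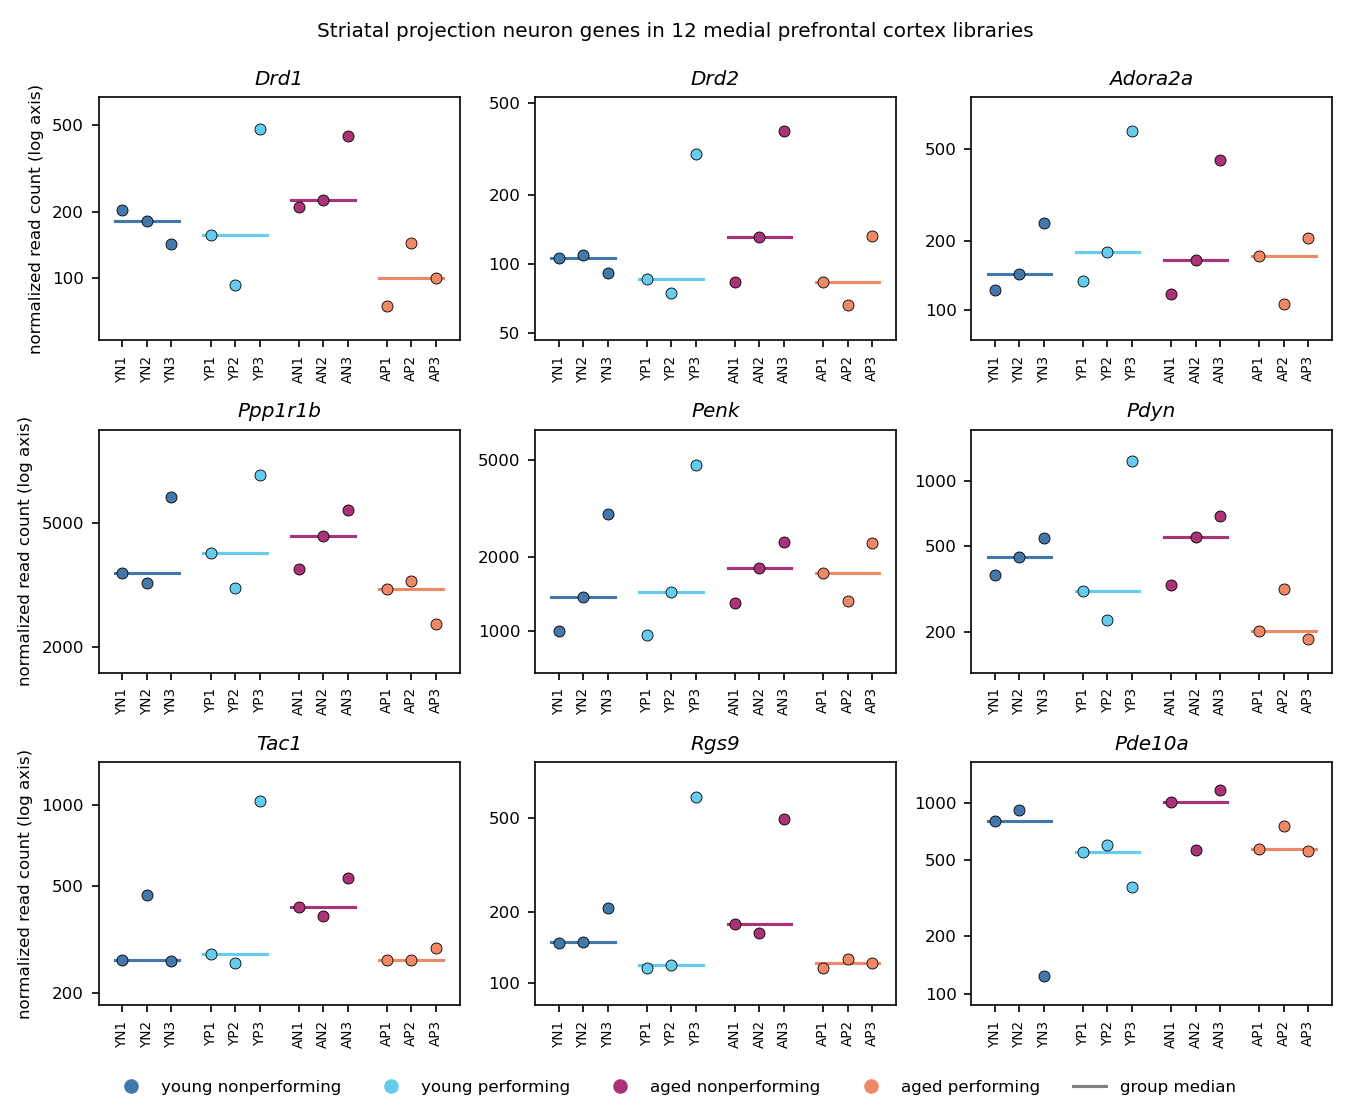
Normalized read count (log axis) of each of the 9 members in each of the 12 libraries, coloured by group, with a line at the group median. YP3 and AN3 stand above the other libraries for Drd1, Drd2, Adora2a, Pdyn, Tac1 and Rgs9, and Pde10a is lowest in YN3 at 124.4.

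Counted over members, YP3 and AN3 were the 2 highest libraries for 6 of 9 (Drd1, Drd2, Adora2a, Pdyn, Tac1 and Rgs9), against 80 of the 13496 genes tested (0.593%). YP3 was the highest library for 7 members (5.17% of genes tested) and AN3 for 2 (6.18%). Each was at least 1.5 times the median for 8 of 9 members, as YP3 was for 4.43% and AN3 for 5.38% of all genes. The same libraries were the highest for 6 members after scaling by TMM or by total reads and for 7 after quantile normalization. Without YN3 they were the highest for 8 of 9, with Penk and Ppp1r1b added, against 1.54% of all genes, and they were then also the highest for 5 of 8 oligodendrocyte and 3 of 6 blood cell genes. These libraries were named in the choice of the genes, so the count describes the pattern and no test was made of it. In only 4 genes of the 13496 (0.0296%) were YP3 and AN3 both at least 2 times the third highest library: Gpr6, Rgs9, Drd2 and Lrrc10b.

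Over the 12 libraries the 28 pairs of members without Pde10a had Pearson correlations of log2(value + 1) from 0.38 to 0.91 (median 0.77), all positive. Over the 10 libraries without YP3 and AN3 the median was 0.29 and the range -0.48 to 0.85. Within those 10, the direct-pathway pair Drd1 and Pdyn had r = 0.78 and the indirect-pathway pair Adora2a and Penk r = 0.85, whereas Drd1 and Adora2a had r = -0.48 and Drd1 and Penk -0.34. Drd2 did not divide by class: its r was 0.38 with Adora2a and 0.30 with Penk, and 0.41 with Tac1, 0.29 with Drd1 and 0.23 with Pdyn. Ppp1r1b went with Pdyn (0.81) and Rgs9 (0.72). Pde10a ran against Adora2a (-0.76), Penk (-0.74) and Ppp1r1b (-0.67). YN3, which stood apart over the whole table, was the highest of these 10 libraries for Adora2a, Penk, Ppp1r1b and Rgs9. It was the lowest for Pde10a, at 124.4, and its part in these coefficients was not tested. Drd1 and Pdyn were lowest in YP2, AP1 and AP3, the libraries with much olfactory bulb RNA. In those libraries Adora2a was at 1.05, 1.02 and 1.21 times its median over the 12 libraries, and Penk at 0.908, 1.09 and 1.44 times. The part of bulb tissue in the coefficients was not tested. The points share libraries and their scaling, so the coefficients are descriptions.

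Other genes known from striatal projection neurons moved with the members in part. Of 39 further genes listed, 35 were in the table and 33 were tested, and YP3 and AN3 were the 2 highest libraries for 5 of them: Gpr6, Lrrc10b, Rarb, Zfp503 and Tmem158. Gpr6, an orphan receptor of indirect-pathway neurons, read 193.5 in YP3 and 127.5 in AN3, and from 15.4 to 43.9 in the other 10 libraries. Lrrc10b read 218.3 and 191.7, and from 62.1 to 91.1 elsewhere. Rarb, a retinoic acid receptor, read 304.3 and 270.8, and at most 212.4 elsewhere, and Tmem158 read 427.7 and 367.7 against at most 349.4. The transcription factor gene Isl1 of direct-pathway neurons, too low to be tested, read 45.8 in YP3 (72 reads) and 8.90 in AN3 (9 reads), and at most 1.98 in any other library. Ido1, the other listed gene too low to be tested, read 1.91 in YP3, 0 in AN3 and at most 1.07 elsewhere. Adcy5, the main striatal adenylyl cyclase, read 3609 in YP3 and 5370 in AN3 and from 3034 to 4646 elsewhere.

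Several of these genes were also high in libraries with much olfactory bulb RNA. The bulb genes summed to 9669 in YP2, 8543 in AP1 and 13642 in AP3, led by Cdhr1, a mitral and tufted cell gene, at 6016, 5231 and 8405, against 819.6 to 3090 in the other 9 libraries. Slc35d3 read 156.6 in YP3 and 102.8 in AN3 but 140.7, 201.6 and 324.1 in YP2, AP1 and AP3, and from 4.81 to 39.4 in the remaining libraries. Syndig1l read 296.0 in YP3 and 241.2 in AN3, but also 209.4 in YP2 and 251.0 in AP3. Without YP2, AP1 and AP3, YP3 and AN3 were the 2 highest libraries for 12 of the 33 genes, against 1.26% of all genes. For the members the count stayed at 6 of 9.

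**Figure D2:**
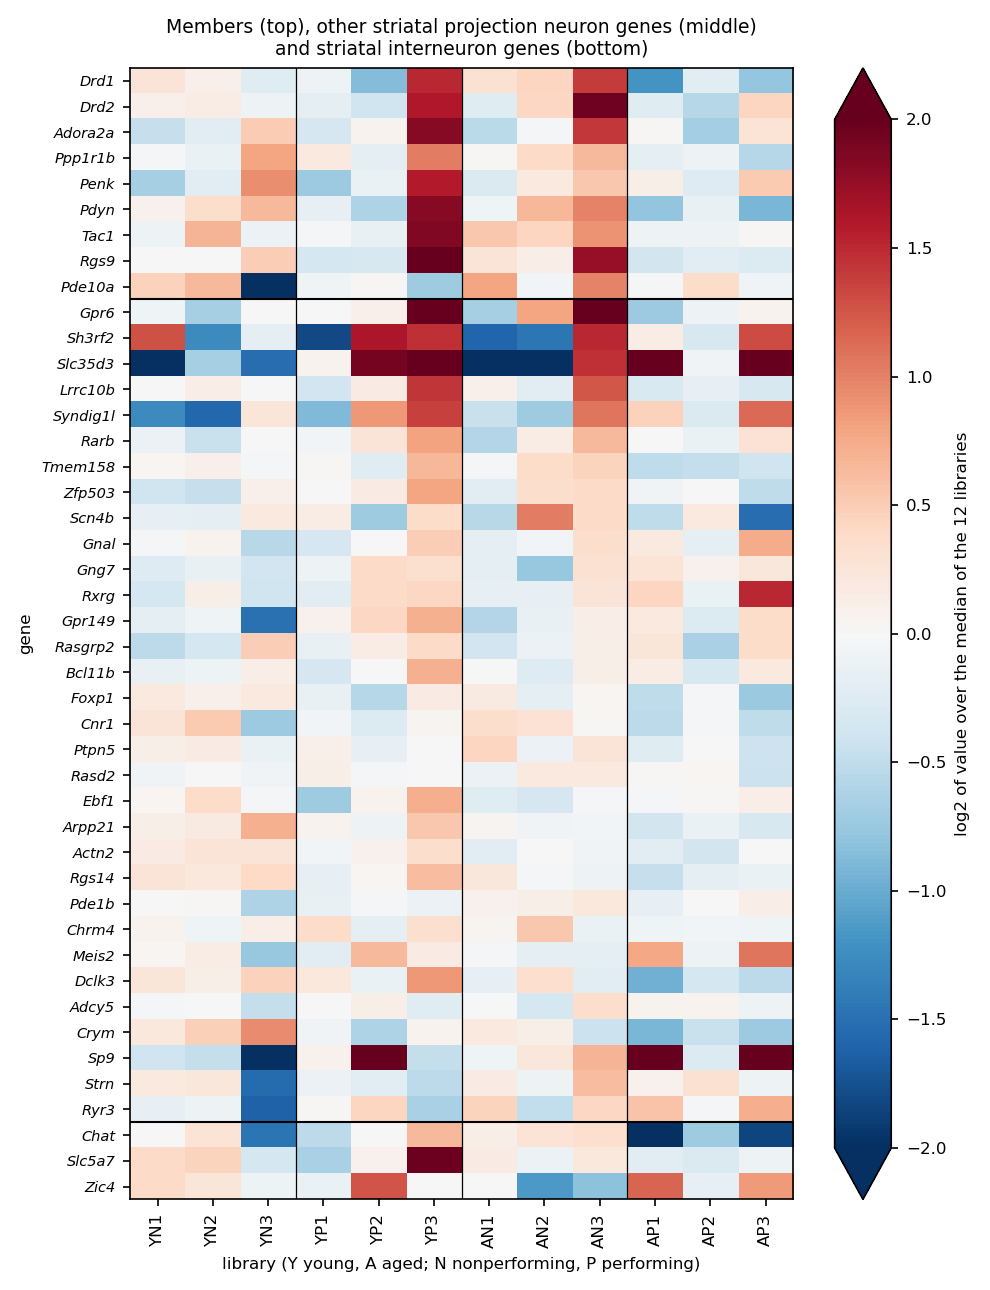
Log2 of the value over the median of the 12 libraries (colour, limits 2 and -2) for the 9 members, for 32 of the 33 other striatal projection neuron genes ordered by the lower of YP3 and AN3, and for 3 of the 4 striatal interneuron genes. The columns YP3 and AN3 are red for the members except Pde10a in YP3, and Gpr6 and Lrrc10b follow them most closely.

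Genes of striatal interneurons gave a smaller and less even signal. Of 8 listed, 4 were tested, and YP3 and AN3 were the 2 highest libraries for 2 of them. Chat (choline acetyltransferase) was one, and at 33.1 in YP3 and 26.7 in AN3 it was hardly above the 25.8 of AN2. Slc5a7, the choline transporter, read 168.7 in YP3 and 50.4 in AN3 against 27.6 to 58.9 in the others. Lhx8, a factor of cholinergic neurons too low to be tested, read 14 in YP3 and 9.88 in AN3 (22 and 10 reads) and at most 2.30 elsewhere. The other untested genes of this list did not have YP3 and AN3 as their 2 highest libraries. Nkx2-1 read 10.8 in YP3 and 6.92 in AN3 but 7.64 in AN2. Gbx1 read 1.91 in YP3 and 0 in AN3, and up to 1.54 elsewhere.

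The signalling partners of the members did not share the pattern, and few of the receptors did. None of 20 tested genes of cAMP and DARPP-32 signalling had YP3 and AN3 highest, although the catalytic calcineurin gene Ppp3ca and its regulatory partner Ppp3r1 were highest in YP3 at 13870 and 20677. Of 9 tested receptors of dopamine, adenosine and the peptides, 1 did (11.1%, against 0.593% of all genes): Oprk1, the receptor for dynorphin, at 50.9 in YP3 and 89.0 in AN3 and at most 34.4 elsewhere. The third dopamine receptor gene Drd3, too low to be tested, read 3.82 in YP3 and 7.91 in AN3 and at most 1.18 elsewhere. Drd4, also too low to be tested, read 3.82 in YP3 and 1.98 in AN3 but 7.90 in AP3. Among the signalling partners the untested Rgs9bp read 2.55 in YP3 and 1.98 in AN3 but 6.92 in AP3. Adora1, the main cortical adenosine receptor, read 2370 in YP3, its lowest library, and 3863 in AN3, its highest. None of 5 peptide processing genes had those libraries highest: Cpe, Scg5 and Pcsk1n were highest in YN3 with YP3 next, as Cpe at 99357 and 77687.

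Every library carried a marker of cortical excitatory neurons, and genes of other cells and tissue varied between libraries. Slc17a7, the vesicular glutamate transporter of cortical excitatory neurons, lay between 21896 and 42470, with 33632 in YP3 and 30347 in AN3. Gad1, of GABA neurons, was 7582 in YP3 and 4985 in AN3 and reached 13937 in AP3. Cdhr1 was 855.5 in YP3 and 493.2 in AN3. Ttr, the choroid plexus marker, was 57.3 in YP3 and 37.6 in AN3, and 37304 in YN3. Mbp, of myelin, read 175013 in YP3 and 189917 in AN3, with 260900 in YN3 and 62877 in AN1. Blood cell genes summed to 8317 in YP3 and 38511 in AN3, and from 1375 to 15009 elsewhere. Of the 11 lists of other cell types and neighbouring tissue, none had a tested gene with YP3 and AN3 as the 2 highest of the 12 libraries on the deposited values. This changed with the setting: without YN3 they were the 2 highest for 5 of 8 oligodendrocyte genes and 3 of 6 blood cell genes, after quantile normalization for 4 of 8 oligodendrocyte genes, and after TMM scaling for 1 of 5 septal genes. Oligodendrocyte genes summed to 296217 in YP3 and 325021 in AN3, to 395024 in YN3, and from 105826 to 263744 in the other 9 libraries. How far myelin, blood or tissue margins took part in the values of the members was not tested.

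**Figure D3:**
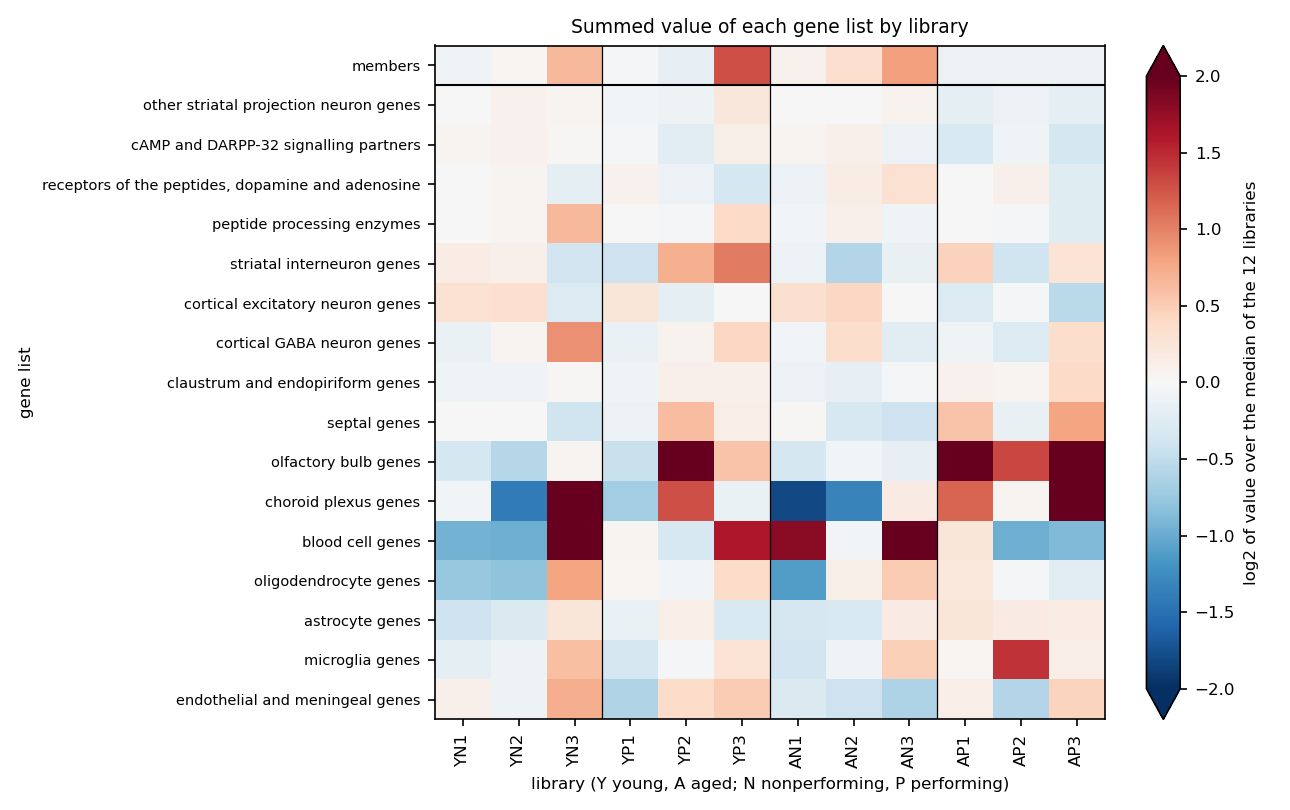
Log2 of the summed value of each gene list in a library over the median of the 12 libraries (colour, limits 2 and -2). The members sum to 16542 in YP3 and 12009 in AN3, bulb genes are highest in YP2, AP1 and AP3, and choroid plexus genes reach 38125 in YN3.

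The genes most like the members over the 12 libraries were taken by Pearson's correlation with the member score, the mean over the 9 members of the log2 value less its own mean. Lrrc10b (r = 0.93), Htr2c (0.92), Ecel1 (0.91), Unc5c (0.88), Lpl (0.87), Tmem158 (0.86), Cav1, Plppr1, Rhob and Pcdh20 led. Htr2c, a serotonin receptor, read 1685 in YP3 and 1264 in AN3, and from 508.6 to 970.8 elsewhere. Ecel1, a neuronal endopeptidase-like gene, was at 315.7 in YP3, 68.2 in AN3 and at most 45.0 elsewhere. With Spearman's rho 2 of these 10 stayed among the 10 leading genes, and without YP3 and AN3 none did, where Hp1bp3, Serinc3 and Gprasp1 led. The score was 1.23 in YP3 and 1.01 in AN3, and from -0.47 to 0.12 in the other libraries. Pde10a had another set of neighbours: Ppp1r9a (0.98), Atp8a1, Csnk2a1, Prkaa2 and Abi2. Each of these was lowest in YN3 and next lowest in YP3, as Pde10a was. YN3 was the lowest library for 30.7% of all genes tested. No list of neighbours was made without YN3, and its part in these coefficients was not tested. Prkaa2 read 33.8 in YN3 and 108.2 in YP3, its lowest libraries, against 179.8 to 408.2 elsewhere.

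The study design compares age and performance. No member passed an adjusted p of 0.05 in limma's moderated test in any of 7 comparisons, and no gene of the 13496 did (0% in each). At an unadjusted p under 0.05, limma had 1 member in 1 comparison, Drd1, lower with performance in aged rats, where 9.46% of all genes reached that level and 4.08% did so by being lower. In the other comparisons 0 members reached it. The share of all genes was 7.5% for age and 10.1% for performance, each averaged over the other factor, 3.17% for age in nonperforming rats, 3.45% for age in performing rats, 1.21% for performance in young rats and 1.03% for the interaction. edgeR on the recovered reads called no member and no gene (0%). DESeq2 called no member either, while it called 0.0148% of genes for age and 0.846% for performance averaged, 0.0519% for age in nonperforming rats and 0.66% for performance in aged rats. It called 0% in the other 3 comparisons. Averaged over the other factor, 3 of 9 members had a positive change with age (50.8% of genes did) and 2 of 9 with performance (49.7%). Each p-value rests on the spread between libraries, which are not stated to be separate animals.

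Of the 4 comparisons within 1 age or 1 performance level, performance in aged rats gave the largest median change of the members. The aged performing libraries were lower than the aged nonperforming ones on average in all 9 members on the log2(value + 1) scale, with a median change of -0.69 against 0 over all genes, of which 49.5% were higher. For 5 of 9 members (Drd1, Ppp1r1b, Pdyn, Tac1 and Rgs9) the performing group lay wholly below the other, as it did for 10.8% of genes. It lay wholly above for 0 members and for 10.7% of genes. Drd1 was 106 ± 35.6 (SD, n = 3) in the performing group and 296 ± 132 (SD, n = 3) in the other. The log2 change of Drd1 was -1.43 (SE 0.51, 95% confidence interval -2.56 to -0.31) and adjusted p = 0.50 by limma. Pdyn changed by -1.13 (SE 0.52, adjusted p = 0.53 by limma), from 526 ± 183 to 235 ± 70.5 (SD, n = 3 each). Rgs9 changed by -1 and Drd2 by -0.83, and Penk by -0.02. AN3 bore on these values: without YP3 and AN3 the change of Drd1 was -1.09, of Pdyn -0.90 and of Rgs9 -0.48, with limma's adjusted p from 0.37 to 0.41, while Drd2 stood at -0.21 and Adora2a at 0.16. Other tissue moved in the same comparison. Cortical excitatory neuron genes were lower for 10 of 12 (median -0.51, Neurod6 -0.95), and all 8 bulb genes were higher (median 2.65). All 6 blood cell genes were lower (median -2.54), and 6 of 9 endothelial and meningeal genes were higher (median 1.67). Leaving out YP2, AP1 and AP3 gave Drd1 -0.94 with 1 aged performing library remaining. The part of tissue composition in these changes was not tested.

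Age in nonperforming rats gave higher values in aged libraries for all 9 members (median 0.47, with 0.01 over all genes, of which 50.8% were higher). In 1 of them, Drd1, every aged library was above every young one, as in 3.96% of genes, and in 0 members the reverse held, as in 4.26% of genes. The change of Drd1 was 0.67 (SE 0.51, adjusted p = 0.73 by limma). The largest change was 0.95, for Pde10a, and it was 0.02 without YN3, a library of the young group. Without YN3, Ppp1r1b went from 0.14 to 0.43 and Penk from 0.13 to 0.59. Some lists of other tissue had larger medians in this comparison: all 6 blood cell genes were higher (median 1.96), all 9 endothelial and meningeal genes were lower (median -1.17) and 6 of 7 choroid plexus genes were lower (median -1.23), and their part in the members' values was not tested. Without YP3 and AN3, 5 of the 9 changes were above 0, with Drd1 at 0.33 and Drd2 at 0.03. In performing rats 1 of 9 members, Pde10a, was higher with age (51.3% of genes were) and 8 were lower (median -0.63). Drd1 changed by -0.90 and Pdyn by -0.96 (adjusted p = 0.89 by limma for both). The groups overlapped for every member, whereas 8.63% of genes were wholly higher and 7.34% wholly lower in aged libraries. There the direction rested on YP3: without YP3 and AN3, 3 members remained below 0, with Drd1 at -0.24, Pdyn at -0.22 and Ppp1r1b at -0.30. In the same comparison all 8 bulb genes (median 1.44) and 5 of 7 choroid plexus genes (median 1.14) were higher. In young rats performance gave 8 of 9 changes above 0 (median 0.23), against 49.5% of genes, and the largest was 0.58 for Adora2a. Groups again overlapped for every member, with 2.94% of genes wholly higher and 1.87% wholly lower. Without YP3 and AN3, 8 of 9 changes were below 0, with Pdyn at -0.74. Here all 8 bulb genes were higher (median 1.74) and 6 of 7 choroid plexus genes were lower (median -1.27). The interaction of age and performance was negative for all 9 members (median -1.09, with 49.4% of genes positive), from -1.57 (SE 0.73) for Drd1 to -0.24 for Penk, with adjusted p = 1 by limma throughout. Without YP3 and AN3 it was -0.57 for Drd1, -0.16 for Pdyn and 0.63 for Penk. The interaction was positive for all 7 choroid plexus genes (median 2.87) and negative for all 6 blood cell genes (median -2.52). The part of other tissue in the members' changes was not tested in these comparisons either.

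**Figure D4:**
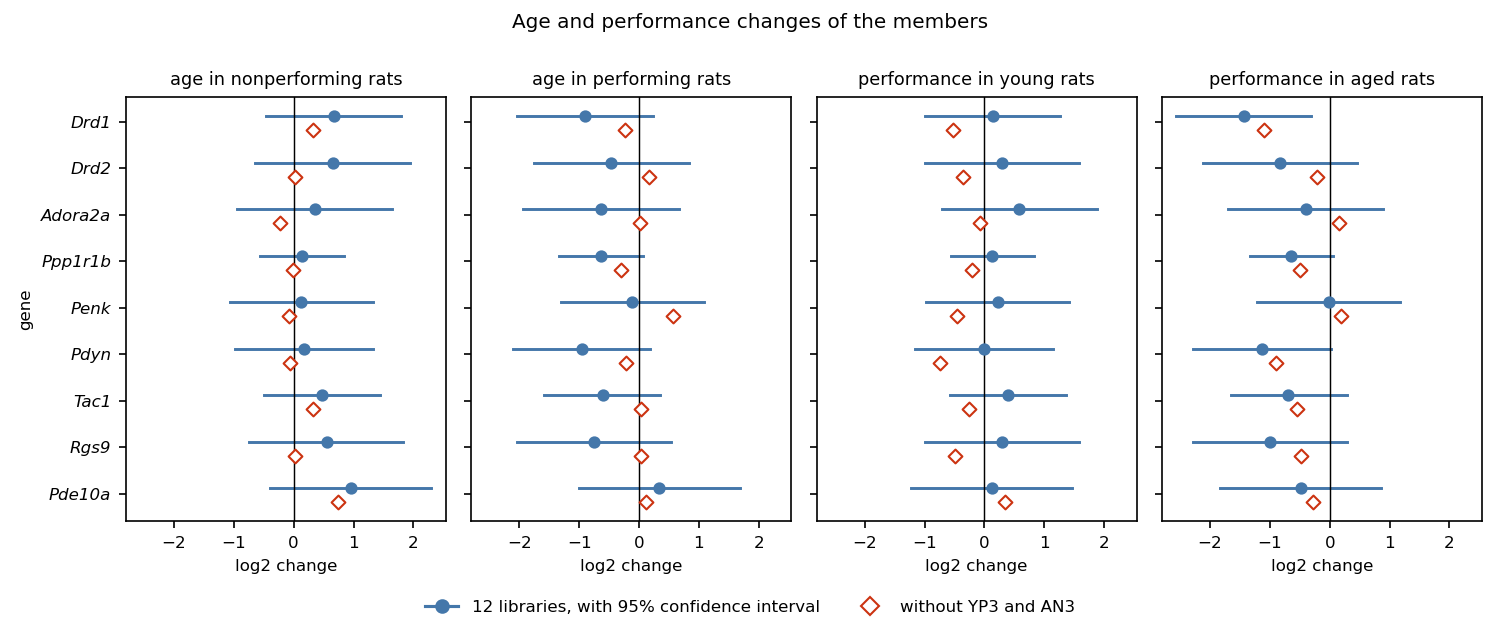
Log2 change of each member in 4 comparisons, with limma's 95% confidence interval over 12 libraries (circles) and the estimate without YP3 and AN3 (diamonds). Only the interval of Drd1 for performance in aged rats, -2.56 to -0.31, lies wholly on one side of 0, and there the estimate without YP3 and AN3 is -1.09.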

How the data were processed

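The authors deposited 1 table of normalized read counts, a signal in which each value is a gene's reads over the size factor of that library. Tools named in the submitters' processing notes are Trimmomatic, Bowtie2, TopHat2, HTSeq and DESeq2, with the build Rnor_6.0. Their versions and settings are not given in the sources used here. The kit was TruSeq stranded mRNA from 1000 ng of RNA (RNeasy), per the labels' protocols. Dividing by the smallest step gave whole reads for 100% of values (tolerance 0.01), 22189094 to 42205582 per library. No libraries were duplicates (chi-squared statistic over its degrees of freedom, 6.94 to 438.36 for pairs).

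Genes reaching 10 in 3 or more libraries were fitted in limma 3.58.1 (R 4.3.3) on log2(value + 1) with 4 group means, trend on, 8 residual degrees of freedom and 3.3 prior degrees of freedom. The 7 contrasts were age and performance, averaged and within each level, plus the interaction. Tests were two-sided, with Benjamini-Hochberg adjustment over all 13496 genes. Recovered reads were also tested by edgeR 4.0.16 quasi-likelihood and DESeq2 1.42.0. Scripts were tested on simulated data. Members, lists and contrasts were chosen with earlier results of these data known. Named were all 9 members, tissue markers, leading genes of each list, the other striatal genes with the largest fold in YP3 or AN3, and the 10 genes with the highest r with the member score (mean of at least 50). Isl1, Lhx8 and Drd3 were named after their values were seen, and so were the other untested genes given beside them. The values of 3 genes that this rule or the lists hold are not reported here. Promoter windows came from RefSeq, build GRCr8, and positions on Rnor_6.0 are not used here.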

Additional observations from a re-analysis of the deposited data

How the results depend on the processing

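Under alternatives to the processing, no member passed in 5 of the 7 comparisons. With library quality weights, 3 members passed in performance averaged over age (Drd1 -0.97, Pdyn -0.77 and Pde10a -0.67) and 2 in performance in aged rats (Drd1 -1.66 and Pdyn -1.16), where 2837 and 1347 genes passed in all. The estimation of these weights stopped before it converged, so these calls may be unreliable. The weights were 0.06 for YN3 and 0.31 for YP3, and 5.69 for YN2. Of 1548 values of member changes under alternatives, 140 had the other sign, 28 of them without both YP3 and AN3 and 20 without YP3 alone, and 27 of 63 member changes kept their sign throughout. Leaving out each library in turn gave 0 members passing in each comparison. The count of other striatal genes highest in YP3 and AN3 went from 5 to 12 without YP2, AP1 and AP3. Of the 10 genes most like the members, 2 remained with Spearman's rho and 0 without YP3 and AN3. The count without YN3 was added after seeing the data. No paired analysis was possible because no label pairs the libraries, whose numbers follow accession order. The SD between libraries exceeded that of counting alone in 33 of 36 combinations of member and group, the exceptions being Drd2 in young nonperforming and Tac1 and Rgs9 in aged performing rats.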
